A study of Arabidopsis thaliana with 12 samples.

Results

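The genes described here are 10 regulators that set up the shoot meristem, the organ boundaries and the cell domains of the plant embryo: WUS, CLV3, STM, CUC1, CUC2, CUC3, WOX1, WOX2, WOX3 and WOX9. They were taken by name and identifier, with earlier results of these data known, and all 10 were found among the 33602 genes measured. Messenger RNA was sequenced from Arabidopsis embryos of the Columbia (Col-0) ecotype that were dissected at the torpedo stage. The 4 groups had 3 biological replicates each, and every embryo had a diploid wild-type (wt) mother. The triploid (3x) groups came from tetraploid pollen donors, which were wt for 3x wt and *nrpd1* (pol4 in the labels) for 3x *nrpd1*, and were collected at 8 days after pollination (DAP) by the labels. The diploid (2x) groups came from diploid donors, *nrpd1* for 2x *nrpd1* and wt for 2x wt, and were collected at 6 DAP.

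NRPD1 is the largest subunit of RNA polymerase IV, which makes the precursors of small interfering RNAs. The mutant allele was *nrpd1-3* and entered only through the pollen, so the *nrpd1* embryos still carried a functional copy from the mother, and the tetraploid lines had been made with colchicine. In 3x wt seeds the endosperm, the nourishing tissue around the embryo, mostly fails to form cell walls, while in 3x *nrpd1* seeds it mostly forms them. The 3x groups were older than the 2x groups by the labels, so in each comparison of 3x with 2x embryos ploidy and age in days cannot be told apart. The sources were not uniform on the age of the 3x *nrpd1* embryos: the labels and the methods give 8 DAP and another passage gives 6 DAP. The labels were followed. At 6 DAP, age would differ between 3x *nrpd1* and 3x wt embryos as well and bear on the interaction, and it would be shared by the 3x and 2x *nrpd1* groups.

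In the shoot meristem, WUS is a homeodomain transcription factor of the organizing centre that keeps the stem cells above it, and CLV3 is the secreted peptide through which those stem cells restrain WUS. STM, a KNOX homeodomain factor, holds meristem cells undifferentiated, and the NAC factors CUC1, CUC2 and CUC3 mark the boundary between the cotyledons and are needed to start STM. The WOX genes are relatives of WUS that divide the embryo into domains: WOX2 acts in the apical lineage, WOX9 in growth of the basal part and of meristems, and WOX1 and WOX3 in the outgrowth of lateral organs.

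CUC1 and CUC2 are known to be cleaved under the direction of the microRNA miR164, whereas CUC3 is not, so the microRNA and its sites are shown first. The mature miR164 sequences were read from the RefSeq annotation of assembly TAIR10.1 at chr2:19520770-19520790, chr5:287586-287606 and chr5:9852684-9852704, all on the plus strand, and the capitals mark the seed (bases 2 to 8). miR164a and miR164b were identical, and miR164c ended in another base.
miR164a: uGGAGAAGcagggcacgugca
miR164c: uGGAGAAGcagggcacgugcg
The best match to the full complement of miR164a was then sought in the span of each gene. The capitals below mark the bases identical to that complement, and only these are counted as paired. G:U pairs were not counted, and each lower-case t in the sites below lies opposite a G of miR164a. CUC1 (chr3:5111137-5111157, plus strand) and CUC2 (chr5:21902301-21902321, minus strand) held the same 21 bases, with 18 of 21 paired, in coding sequence within an exon.
CUC1 site: aGCACGTGtCCTGtTTCTCCA
CUC2 site: aGCACGTGtCCTGtTTCTCCA
The best match in CUC3 paired at 12 of 21 bases, and those in the other 7 genes at 12 to 14. Among 32835 genes searched, 6 (0.0183%) held a site with at least 18 paired bases, and the other 4 were NAC1, NAC080, NAC100 and AT3G12977. A match is a description of the letters and was not tested as a cleavage site here.

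The 3 genes of the set that passed the test between 3x wt and 2x wt embryos were WOX9, CUC1 and CLV3, and the 250 bases before their RefSeq start sites are shown, read 5′ to 3′ on the strand of the gene. Each was searched on both strands for CATGCA, the core of the RY element bound by seed maturation factors, for ACGTG, the core of the abscisic acid response element, and for TTAATGG, a sequence that WUS binds. Matches are in capitals. The CLV3 window was at chr2:11665798-11666047 (minus strand), the CUC1 window at chr3:5109532-5109781 (plus strand) and the WOX9 window at chr2:14343797-14344046 (minus strand).
CLV3 upstream: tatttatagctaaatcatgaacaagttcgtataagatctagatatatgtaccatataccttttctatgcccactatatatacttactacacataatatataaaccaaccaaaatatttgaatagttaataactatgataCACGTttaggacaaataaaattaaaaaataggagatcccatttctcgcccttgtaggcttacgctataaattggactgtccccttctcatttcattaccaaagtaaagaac
CUC1 upstream: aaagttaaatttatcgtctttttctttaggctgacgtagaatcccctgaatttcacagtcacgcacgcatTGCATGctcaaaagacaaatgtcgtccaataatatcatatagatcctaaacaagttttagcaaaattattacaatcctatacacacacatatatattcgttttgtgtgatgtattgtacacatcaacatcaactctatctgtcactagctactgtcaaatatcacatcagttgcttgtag
WOX9 upstream: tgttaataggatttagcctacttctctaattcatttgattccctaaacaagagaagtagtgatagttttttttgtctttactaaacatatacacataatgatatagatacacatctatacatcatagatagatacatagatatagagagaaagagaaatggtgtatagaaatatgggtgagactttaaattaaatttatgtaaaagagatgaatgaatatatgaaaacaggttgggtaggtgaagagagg
The CLV3 window held ACGTG on its minus strand at bases -111 to -107, the CUC1 window held CATGCA on its minus strand at bases -180 to -175, and the WOX9 window held none of the 3. CATGCA occurred in 8.51% of the 26711 windows of the same length before protein-coding genes, ACGTG in 23.1% and TTAATGG in 7.04%. In the other windows of the set, WUS had CATGCA and WOX2 had TTAATGG once each, and the 5 windows of STM, CUC2, CUC3, WOX1 and WOX3 had no match.

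The values are RPKM (reads scaled by transcript length and library size), which compare genes of different length within a library. The steps between low values implied a total of 6851605 to 13602763 counted reads behind the RPKM of each library. In every library this total is much smaller than the number of mapped reads that the study lists, and the reason was not tested. The study also lists a lower share of reads mapped for each 3x wt library than for any library of the other groups. The bearing of this on the comparisons with 3x wt was not tested. Whether both mates of a pair were counted is not given in the sources used here, so the counts of reads below may not be independent. The library of 3x *nrpd1* replicate 3 stood apart: its RPKM summed to 866800, against 711700 to 751200 in the other 11 libraries, its mean correlation with its own group was 0.939, against 0.958 to 0.985 for the other 11, and relative to its group its genes over 3000 bp lay lower by a median log2 difference of -1.16, while its genes under 1000 bp lay higher by 0.39. RPKM of NRPD1 spanned 1.78 to 3.61 in 3x *nrpd1*, 2.82 to 4.48 in 2x *nrpd1*, 1.46 to 2.17 in 3x wt and 2.42 to 2.69 in 2x wt embryos, and since the maternal copy was intact in all of them the level does not check the labels. All 12 listed embryo markers, such as LEC1, FUS3 and ABI3, averaged over 1 RPKM in every group. Of 12 endosperm markers 2, AGL36 and AGL90, were listed at 0 in all 12 libraries, and AGL62, a factor of the uncellularized endosperm, stayed under 1 RPKM in all 12. Others were present: PHE1 was listed at 0 in every 2x library and above 0 in every 3x library. PHE1 had 1.22, 1.96 and 1.56 RPKM in 3x wt and 1.03, 3.70 and 0.994 RPKM in 3x *nrpd1* embryos. ZOU had 1.90, 2.29 and 1.65 RPKM in 3x *nrpd1*, against 0.650, 0.187 and 0 RPKM in 3x wt embryos. Summed over the endosperm list, RPKM were 85.7 to 93.9 in 3x wt, 22.3 to 75.2 in 3x *nrpd1*, 54.1 to 65.0 in 2x *nrpd1* and 54.8 to 66.6 in 2x wt embryos, nearly all from SUC5. Without SUC5, left out after its values were seen, the ranges were 2.68 to 3.28, 3.1 to 7.58, 0.728 to 2.3 and 1.6 to 1.85 in the same order.

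All 10 genes were detected in every library, at levels that ran over more than an order of magnitude. WOX9 was the highest of the 10 in every library and stood apart from the next gene, WOX1, in all 4 groups. In 2x wt embryos the order by mean RPKM was WOX9 (14.8 ± 1.6, SD, n = 3), WOX1 (9.93 ± 1.76), CUC3 (6.86 ± 0.90), WOX3 (6.59 ± 0.35), STM (4.39 ± 0.11), CUC2 (3.00 ± 1.03), WOX2 (2.89 ± 0.58), CUC1 (1.68 ± 0.15), CLV3 (1.29 ± 0.25) and WUS (1.09 ± 0.40). The ranges overlapped for 4 of the 9 neighbouring pairs in that order, namely CUC3 with WOX3, CUC2 with WOX2, CUC1 with CLV3 and CLV3 with WUS. In 3x wt, 3x *nrpd1* and 2x *nrpd1* embryos 7 of the 9 neighbouring pairs overlapped. CUC1 held rank 5 in 3x wt and rank 6 in 3x *nrpd1* embryos, against rank 8 in both 2x groups.

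**Figure D1:**
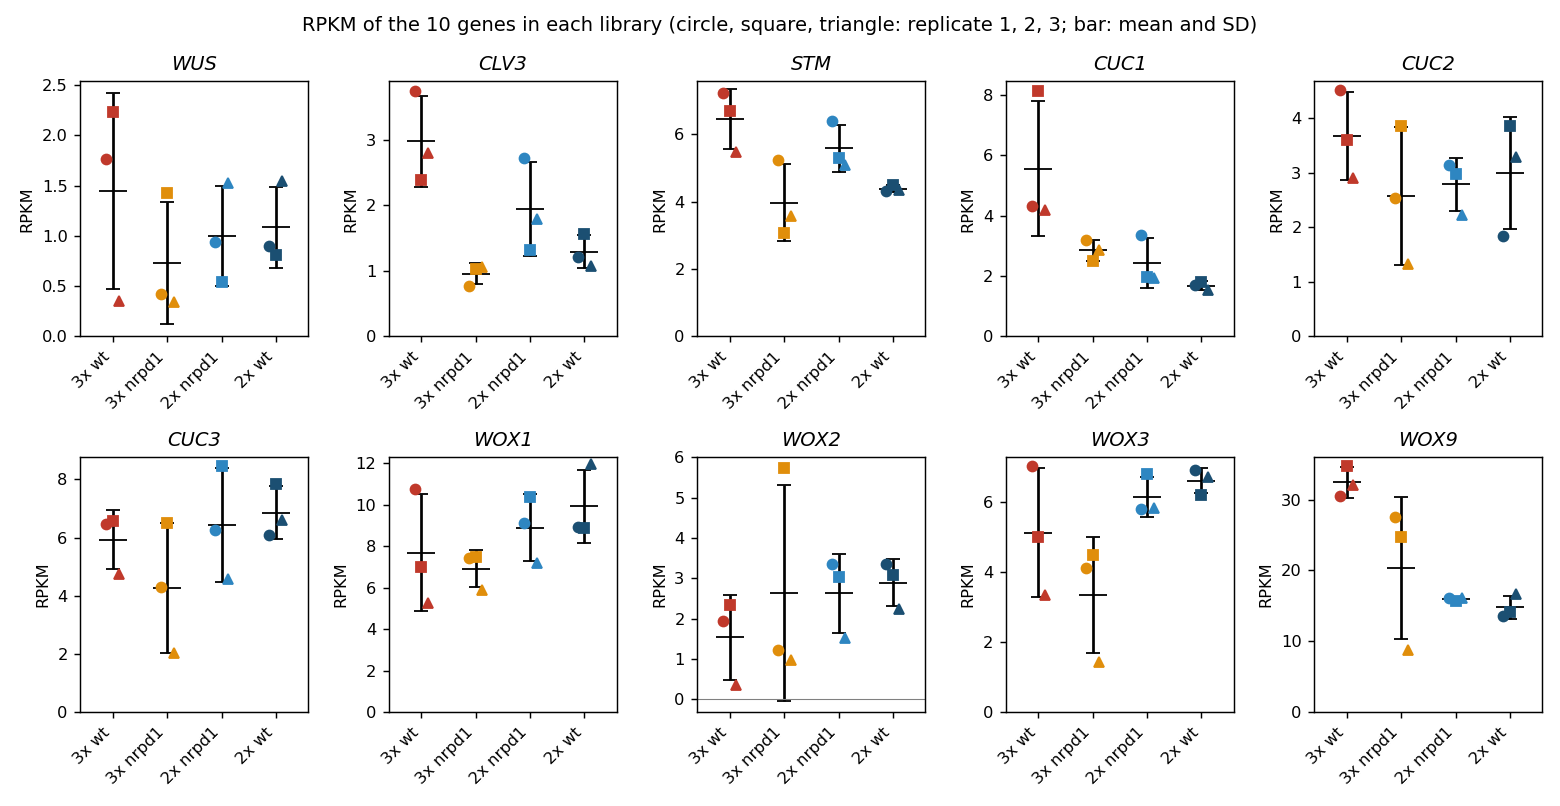
RPKM of each gene (vertical axis, one panel per gene, each with its own scale) in the 12 libraries, with groups in the order 3x wt, 3x *nrpd1*, 2x *nrpd1* and 2x wt. Circles, squares and triangles are replicates 1, 2 and 3, and the bars give the mean and SD (n = 3). The 3 libraries of 3x wt lie above those of 2x wt for CLV3, STM, CUC1 and WOX9.

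At these depths WUS, CLV3 and WOX2 rested on few reads. WUS had 3 to 25 reads in a library, CLV3 had 6 to 24 and WOX2 had 2 to 36, while WOX9 had 97 to 487. In 3x wt replicate 3 the levels of WUS and WOX2 stood for 3 and 2 reads. A count of 3 reads was worth between 0.144 and 0.558 RPKM, depending on the gene and library, and these limits cover counting error only.

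The comparison of 3x wt with 2x wt embryos set triploid embryos, mostly next to endosperm without cell walls, against normal diploid ones. The state of the endosperm, ploidy and age in days differ together here and cannot be told apart. Of the set, 3 genes rose, each with its own role: the stem cell peptide CLV3, the boundary factor CUC1 and the WOX gene WOX9. No member fell. Genes were tested with limma on log2(RPKM + 0.5) after scaling, with Benjamini-Hochberg adjustment over the 17965 genes tested, and a gene was called when its log2 fold change lay beyond 1 or -1 with adjusted p below 0.05. All 10 members were tested, and 3 of 10 were called higher and 0 lower. Of all genes tested 11.1% were called higher and 4.85% lower. The median log2 fold change of the 10 was 0.35, against -0.01 over all genes.

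CLV3 (AT2G27250, chr2:11664978-11665797, minus strand) had 3.74, 2.38 and 2.79 RPKM in 3x wt embryos, against 1.21, 1.57 and 1.08 RPKM in 2x wt embryos. Each 3x wt library was above each 2x wt library. The log2 fold change was 1.07 with a standard error (SE) of 0.23 (adjusted p = 0.0037, limma). It passed in 11 of 16 alternatives, and in the other 5 its adjusted p stayed at or below 0.016 while the change fell under the fold threshold, to 0.87 at the lowest. Among these were the fits that left out replicate 1 of 3x wt (0.95) or replicate 3 of 2x wt (0.97). In RNA of whole embryos, more cells that express a gene and more RNA per cell cannot be told apart, which holds for every gene here.

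STM (AT1G62360, chr1:23058582-23062063, minus strand), which keeps meristem cells undifferentiated, had 7.21, 6.69 and 5.46 RPKM in 3x wt embryos, against 4.30, 4.51 and 4.35 RPKM in 2x wt embryos. These ranges did not overlap either. Its log2 fold change of 0.65 (SE 0.15, adjusted p = 0.0053, limma) passed the threshold on p and not that on fold. Among all genes tested, 26.7% passed that p higher and 24.6% lower, and the counts for the set were 4 and 0.

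WUS (AT2G17950, chr2:7808871-7810811, minus strand) had 1.76, 2.23 and 0.355 RPKM in 3x wt embryos, against 0.90, 0.810 and 1.55 RPKM in 2x wt embryos. The libraries of both groups overlapped, with the lowest of all 6 in 3x wt. The log2 fold change was 0.27, with a 95% interval from -0.70 to 1.24 (adjusted p = 0.62, limma), which also holds a change of the size seen for CLV3. Without 3x wt replicate 3, its lowest library, it was 0.80 (adjusted p = 0.063, limma), and with quantile normalization -0.07.

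Among the boundary genes, CUC1 (AT3G15170, chr3:5109782-5111608, plus strand) had 4.32, 8.12 and 4.20 RPKM in 3x wt embryos, against 1.71, 1.81 and 1.52 RPKM in 2x wt embryos. The lowest 3x wt library was well above the highest 2x wt library. The log2 fold change of 1.55 (SE 0.26, adjusted p = 0.0011, limma) was the largest of the 10, and CUC1 was called in all 16 alternatives that tested it.

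CUC2 (AT5G53950, chr5:21901704-21903854, minus strand), which holds the same miR164 site as CUC1, had 4.53, 3.61 and 2.90 RPKM in 3x wt embryos, against 1.85, 3.85 and 3.30 RPKM in 2x wt embryos. The groups overlapped, and the log2 fold change was 0.43 with a 95% interval from -0.15 to 1.00 (adjusted p = 0.19, limma), or 0.17 without 2x wt replicate 1. CUC3 (AT1G76420, chr1:28671806-28674045, minus strand), without such a site, had 6.47, 6.57 and 4.76 RPKM in 3x wt embryos, against 6.10, 7.86 and 6.62 RPKM in 2x wt embryos, and a log2 fold change of -0.05 (95% interval -0.43 to 0.33, adjusted p = 0.83, limma) whose sign depended on the library left out. Of the other genes with the site, NAC1 stood at a log2 value of 0.35 (SE 0.22; adjusted p = 0.20, limma), and NAC080, NAC100 and AT3G12977 were too low to be tested.

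The share of CUC1 in the CUC messages was higher in every 3x wt library than in any 2x wt library. Of the summed RPKM of CUC1, CUC2 and CUC3 it made up 28.2%, 44.4% and 35.4% in 3x wt libraries, against 17.7%, 13.4% and 13.3% in 2x wt libraries. The 3x *nrpd1* libraries, at 19.4% to 46.1%, also lay above all 2x wt libraries, and the 2x *nrpd1* libraries had 14.6% to 26.4%. On the log2 scale CUC1 relative to CUC2 was higher by 1.13 and relative to CUC3 by 1.61 in 3x wt than in 2x wt embryos. Neither ratio overlapped between the groups, and each had an exact permutation p of 0.1 (two-sided, n = 3 each), which is the smallest that 3 libraries against 3 allow, also after adjustment over the 5 ratios examined. For CUC1 over CUC2 the groups barely separated, with the lowest 3x wt value at -0.06 and the highest 2x wt value at -0.09. For CUC1 over CUC3 these were -0.53 and -1.58. These ratios were chosen after the levels had been seen.

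Among the WOX genes, WOX9 (AT2G33880, chr2:14341355-14343796, minus strand) had 30.5, 34.8 and 32.0 RPKM in 3x wt embryos, against 13.6, 14.1 and 16.6 RPKM in 2x wt embryos. The groups were far apart and each was tight. The log2 fold change was 1.27 (SE 0.11, adjusted p = 2.3e-05, limma), the smallest adjusted p of the set, and WOX9 was called in all 17 alternatives.

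None of the other 3 WOX genes passed the test. WOX1 (AT3G18010, chr3:6160733-6163453, minus strand) had 10.8, 7.01 and 5.28 RPKM in 3x wt embryos, against 8.95, 8.87 and 12 RPKM in 2x wt embryos. WOX3 (AT2G28610, chr2:12262013-12263595, plus strand) had 7.0, 5.0 and 3.32 RPKM in 3x wt embryos, against 6.89, 6.2 and 6.69 RPKM in 2x wt embryos. For both, the 3x wt libraries spread more widely than the 2x wt libraries and overlapped them, with log2 fold changes of -0.23 (95% interval -0.72 to 0.25) for WOX1 and -0.24 (-0.73 to 0.25) for WOX3. WOX2 (AT5G59340, chr5:23933338-23935050, minus strand) had 1.95, 2.33 and 0.343 RPKM in 3x wt embryos, against 3.36, 3.07 and 2.24 RPKM in 2x wt embryos, and its log2 fold change of -0.77 (95% interval -1.74 to 0.19) did not pass (adjusted p = 0.16, limma). The 3x wt replicate 3 was the lowest library of its group for all 3 genes, and without it the log2 fold changes were -0.02 for WOX1, 0.01 for WOX3 and -0.22 for WOX2. Without 3x wt replicate 1 they were -0.47 for WOX1 and -0.45 for WOX3. The share of WOX9 in the summed RPKM of WOX1, WOX2, WOX3 and WOX9 was 60.7% to 78.2% in 3x wt libraries, against 41.5% to 44.3% in 2x wt libraries. It was 51.6% to 68.3% in 3x *nrpd1* libraries, also above all 2x wt libraries, and 43.8% to 52.6% in 2x *nrpd1* libraries. Relative to WOX1, WOX2 and WOX3, WOX9 was higher in 3x wt than in 2x wt embryos by 1.5, 2.01 and 1.5 on the log2 scale. Each ratio had an exact permutation p of 0.1 (n = 3 each), again the smallest possible whatever the values. These ratios were also chosen after the levels had been seen and use the same values as the tests of the single genes.

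**Figure D2:**
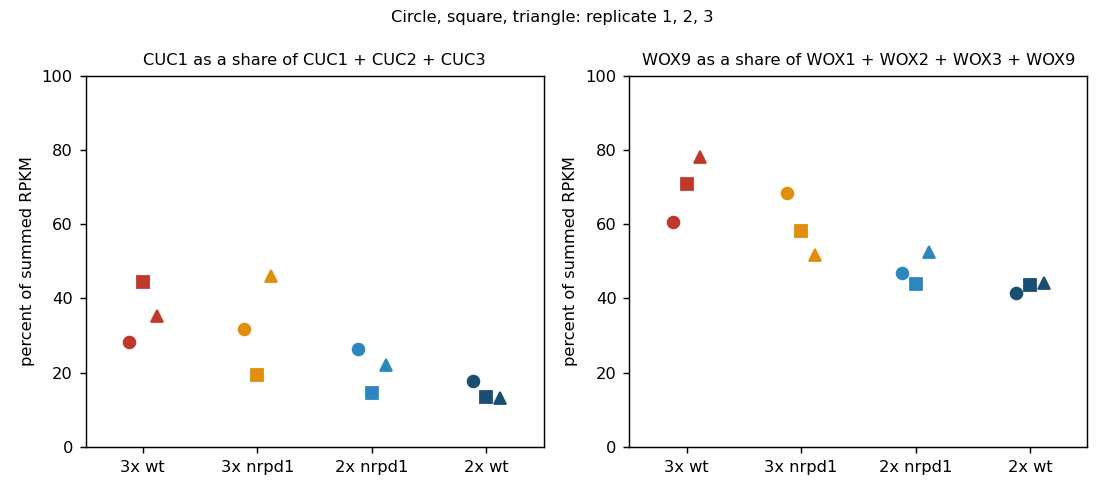
CUC1 as a percentage of the summed RPKM of the 3 CUC genes (left) and WOX9 as a percentage of the summed RPKM of the 4 WOX genes (right) in each library, with circles, squares and triangles for replicates 1, 2 and 3. In both panels all 3x wt and all 3x *nrpd1* libraries lie above all 2x wt libraries. The 3x *nrpd1* libraries spread from 19.4% to 46.1% (left) and from 51.6% to 68.3% (right). Those of 2x *nrpd1* spread from 14.6% to 26.4% (left) and from 43.8% to 52.6% (right).

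Counted by RPKM that did not overlap, 4 of the 10 genes were higher in 3x wt than in 2x wt embryos and 0 lower, where 23.2% of all genes tested were higher and 39.6% lower. The fold changes of CLV3 depended on the scaling, since the deposited values placed the median of all genes at -0.16 and quantile normalization at -0.11. On those scales CLV3 stood at 0.95 and 0.87. Seed coat markers did not all move one way. The sum over 9 of them was 264 to 325 RPKM in 3x wt and 149 to 161 RPKM in 2x wt embryos, most of it from SBT1.7. Without SBT1.7, left out after its values were seen, it was 14.4 to 23.3 RPKM in 3x wt and 9.91 to 14.3 RPKM in 2x wt embryos. Of the 5 tested, BAN, TT10 and SBT1.7 were called higher, while TT12 stood at -0.97 (adjusted p = 0.023, limma, under the threshold on fold) and TTG2 at -0.37 (adjusted p = 0.077), and TT2, a regulator of seed coat pigment, was listed at 0 in all 6 of these libraries. BAN and TT10 were under 1 RPKM in every 2x wt library and were tested only through their 3x wt levels. The count of called markers follows in part from this filter. PHE1, an endosperm factor, was at 1.22, 1.96 and 1.56 RPKM in 3x wt and was listed at 0 in all 3 of 2x wt. The part of such tissue in the changes of the set was not tested.

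**Figure D3:**
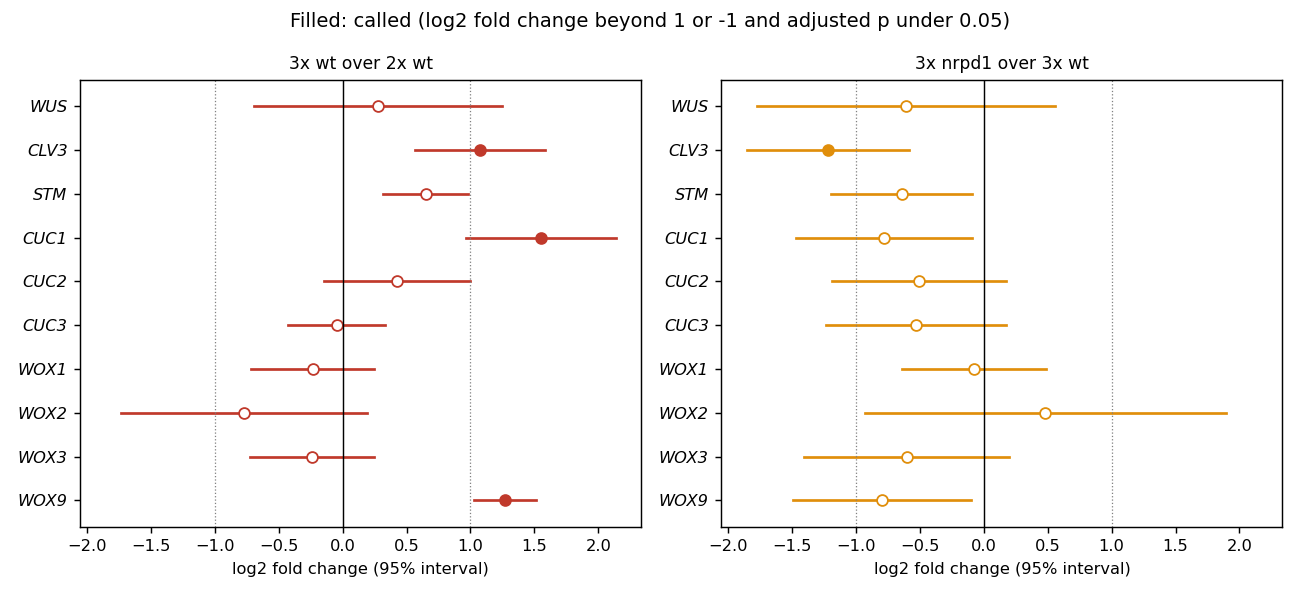
Log2 fold change of each gene with its 95% interval, for 3x wt over 2x wt (left) and 3x *nrpd1* over 3x wt (right). Dotted lines mark 1 and -1 and filled points were called. CLV3, CUC1 and WOX9 are filled on the left and CLV3 alone is filled on the right.

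The comparison of 3x *nrpd1* with 3x wt embryos set triploid embryos with mostly walled endosperm against those mostly without. It shares the 3x wt libraries with the comparison before it. The state of the endosperm and the genotype of the pollen donor differ together here and cannot be told apart. Only CLV3 was called, and it fell: it had 0.770, 1.03 and 1.06 RPKM in 3x *nrpd1* embryos, against 3.74, 2.38 and 2.79 RPKM in 3x wt embryos. These values stood for 6 or 7 reads in each 3x *nrpd1* library, and all 3 were below every 3x wt library. The log2 fold change was -1.22 (SE 0.28, adjusted p = 0.024, limma). Of the 10 genes 0 were called higher and 1 lower, where 3.18% of the 17913 genes tested were called higher and 6.5% lower. The call was lost in 7 of 16 alternatives. It was lost with any one library left out except 3x *nrpd1* replicate 3, with adjusted p between 0.055 and 0.12. Without that replicate, which stood apart, the change was -1.38 (adjusted p = 0.0083). The seed coat sum was 110 to 177 RPKM in 3x *nrpd1* and 264 to 325 RPKM in 3x wt embryos, with BAN, TT10 and SBT1.7 called lower of 5 tested. BAN, under 1 RPKM in every 3x *nrpd1* library, and TT10, there at most 1.003 RPKM, were tested only through their 3x wt levels. TT12 stood at 0.99 (adjusted p = 0.087, limma) and TTG2 at 0.34 (adjusted p = 0.25), and the part of such tissue in the change of CLV3 was not tested.

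STM, CUC1 and WOX9 were also at lower values in every 3x *nrpd1* library than in any 3x wt library, without passing the test. STM had 5.25, 3.07 and 3.57 RPKM in 3x *nrpd1* embryos, CUC1 had 3.19, 2.50 and 2.86 RPKM, and WOX9 had 27.5, 24.7 and 8.84 RPKM. Their log2 fold changes were -0.64, -0.78 and -0.80, with adjusted p values of 0.11, 0.12 and 0.12 (limma). Without 3x wt replicate 2, its highest library, CUC1 stood at -0.49. Together with CLV3, 4 of the 10 genes did not overlap in the lower direction and 0 in the higher, where 20.1% of all genes tested lay lower and 19.6% higher in this way.

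The value of WOX9 turned on 3x *nrpd1* replicate 3, its lowest library. Without it the change was -0.42, smaller than with it, but with a smaller spread (SE 0.12, adjusted p = 0.030, limma), under the threshold on fold. The same library was also the lowest of its group for CUC2, CUC3, WOX1, WOX2, WOX3 and WUS.

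For those 6 genes the 2 triploid groups overlapped. CUC2 had 2.53, 3.86 and 1.32 RPKM in 3x *nrpd1* embryos, CUC3 had 4.29, 6.49 and 2.02 RPKM, and WOX3 had 4.10, 4.48 and 1.44 RPKM. WOX1 was steadier, at 7.43, 7.46 and 5.88 RPKM. WOX2 had 1.22, 5.73 and 0.982 RPKM, with replicate 2 above every other library of the series, and WUS had 0.420, 1.43 and 0.339 RPKM. None of the 6 passed (limma, adjusted p from 0.27 to 0.85), and the log2 fold changes ran from -0.61 for WUS to 0.48 for WOX2. Without 3x *nrpd1* replicate 3 they were -0.28 for CUC2, -0.24 for CUC3, -0.28 for WOX3 and 0.78 for WOX2, against -0.51, -0.53, -0.61 and 0.48 with it. WOX2 was at -0.06 without 3x wt replicate 3 and at -0.11 without 3x *nrpd1* replicate 2, and WUS at -1.12 without 3x wt replicate 3. WOX1, at -0.08 with all libraries, was at 0.15 without 3x wt replicate 1.

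Between 3x *nrpd1* and 2x *nrpd1* embryos no member was called by limma, and 1 of 9 tested, WOX3, had an unadjusted p under 0.05. Among the 17585 genes tested 0.904% were called higher and 0.0171% lower. WUS was too low to be tested there. CLV3 had 2.72, 1.31 and 1.79 RPKM in 2x *nrpd1* embryos, all above the 3 values of 3x *nrpd1* embryos, with a log2 fold change of -0.61 (95% interval -1.33 to 0.11, adjusted p = 0.52). CUC1 had 3.37, 1.96 and 1.93 RPKM in 2x *nrpd1* embryos and overlapped 3x *nrpd1*, with a log2 fold change of 0.34 (95% interval -0.29 to 0.96). STM had 6.38, 5.29 and 5.07 RPKM in 2x *nrpd1* embryos, with a log2 fold change of -0.35 (-0.89 to 0.19). WOX3 had 5.79, 6.77 and 5.82 RPKM in 2x *nrpd1* embryos, above all 3x *nrpd1* libraries, with a log2 fold change of -0.79 (-1.51 to -0.08, adjusted p = 0.41). CLV3 and WOX3 were thus the 2 genes that did not overlap in the lower direction, with 0 in the higher, where 14.8% of all genes tested lay lower and 8.14% higher.

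WOX9 had 16.1, 15.7 and 16.1 RPKM in 2x *nrpd1* embryos, the tightest values of the set. Replicates 1 and 2 of 3x *nrpd1*, at 27.5 and 24.7 RPKM, lay above them and replicate 3, at 8.84 RPKM, below. With all libraries the log2 fold change was 0.31 (95% interval -0.41 to 1.03, adjusted p = 0.69, limma). Without replicate 3 of 3x *nrpd1* it was 0.72 (SE 0.10, adjusted p = 0.015, limma), under the threshold on fold. Without that library WOX3 stood at -0.44, against -0.79 with it, and CUC3 at -0.20, against -0.51. CUC2 and WOX2 stood at 0.18 and 0.14 without it, against -0.08 and -0.17 with it.

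Between 2x *nrpd1* and 2x wt embryos limma called no member of 9 tested, nor any of the 17472 genes (0% higher and 0% lower), and STM alone of the members had an unadjusted p under 0.05. The smallest adjusted p over all genes was 0.084 (limma). The study, which tested counts, reported 9 genes that differed, none of the set, so 0% here does not mean that no gene differed. The log2 fold changes of the members ran from -0.13 for WOX2 to 0.44 for CLV3. STM was higher in every 2x *nrpd1* library than in any 2x wt library by a log2 fold change of 0.33 (95% interval 0.02 to 0.65, adjusted p = 0.87), and CUC1 by 0.41 (-0.13 to 0.95, adjusted p = 0.89). These were 2 of 10 genes without overlap in the higher direction and 0 in the lower, where 4.26% of all genes tested lay higher and 6.96% lower. WUS, which was not tested, had 0.937, 0.537 and 1.52 RPKM in 2x *nrpd1* embryos. CUC2 had 3.15, 2.99 and 2.23 RPKM, CUC3 had 6.27, 8.46 and 4.57 RPKM, WOX1 had 9.11, 10.4 and 7.17 RPKM and WOX2 had 3.34, 3.03 and 1.52 RPKM, all 4 overlapping 2x wt.

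Whether the change from 2x to 3x embryos differed between the pollen donors was tested as an interaction over all 12 libraries (*nrpd1* minus wt). CLV3 and STM differed. For CLV3 the log2 change was -0.61 with *nrpd1* and 1.07 with wt donors, and the difference was -1.68 (SE 0.37, adjusted p = 0.012, limma). It was called in all 21 alternatives that tested it, with values from -2.07 to -1.37. For STM the log2 change was -0.35 with *nrpd1* and 0.65 with wt donors, and the difference of -1.001 (SE 0.27, adjusted p = 0.032, limma) lay at the threshold on fold and was called in 11 of 22 alternatives. With 1 library left out it was called in 4 of 12 fits, those without 3x *nrpd1* replicate 1, 3x *nrpd1* replicate 3, 2x *nrpd1* replicate 3 or 3x wt replicate 3. Of the 10 genes 0 were called higher and 2 lower, where 2.77% of the 18561 genes tested were called higher and 5.32% lower.

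For CUC1 the difference was -1.21 (SE 0.39, adjusted p = 0.062, limma) and for WOX9 -0.96 (SE 0.35, adjusted p = 0.098, limma), and neither was called. Without 3x *nrpd1* replicate 3 CUC1 was called at -1.32 (adjusted p = 0.034), STM at -1.06 (adjusted p = 0.016) and CLV3 at -1.83 (adjusted p = 0.0052), while WOX9 stood at -0.57 (adjusted p = 0.015). Without 3x *nrpd1* replicate 1 WOX9 was called at -1.19 (adjusted p = 0.040). For the other 6 genes the differences ran from -0.55 to 0.60, with adjusted p from 0.39 to 0.97. Of these CUC2 stood at -0.26, CUC3 at -0.16, WOX3 at -0.21 and WOX2 at 0.91 without 3x *nrpd1* replicate 3, against -0.50, -0.46, -0.55 and 0.60 with it. The interaction uses the same libraries as the comparisons above and is no independent evidence for them.

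**Figure D4:**
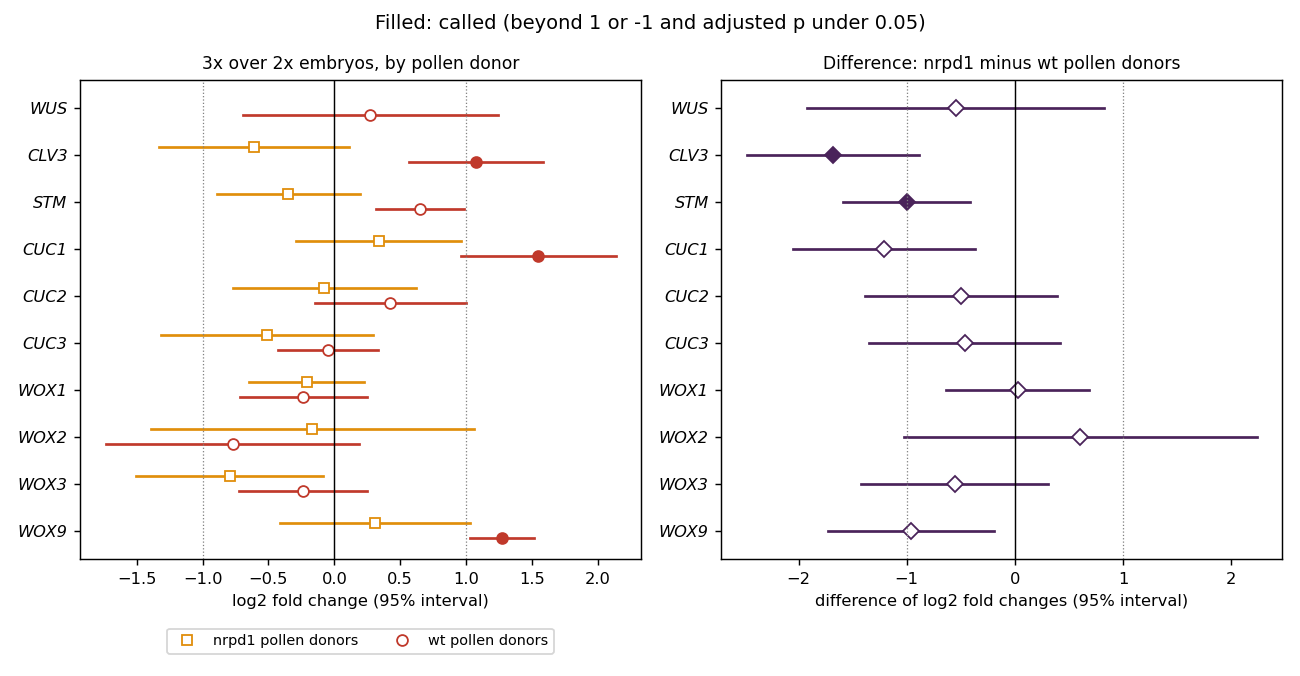
Log2 fold change of 3x over 2x embryos with *nrpd1* donors (squares) and with wt donors (circles), each with its 95% interval (left), and the difference of the changes, *nrpd1* minus wt, with its 95% interval (right). Filled points were called. CLV3 and STM are filled on the right, and WUS has no square because it was too low to be tested.

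Genes known to act with the set were described from lists, and counts on p alone in 3x wt over 2x wt are to be read against 26.7% of all genes higher and 24.6% lower. Among 10 genes of CLV3 perception, which include the receptor kinase CLV1 and its partners CLV2 and CRN, all 10 were tested between 3x wt and 2x wt embryos and 0 were called, with 1 passing on p alone in the higher direction (BAM1, log2 fold change 0.57) and 2 in the lower (CRN, -0.31, and BAM2, -0.50). CLV1 stood at -0.35 (adjusted p = 0.080, limma). Among 9 HAM and TPL genes, partners of WUS, 8 were tested and HAM3, a GRAS factor, rose: it had 4.22, 7.0 and 4.89 RPKM in 3x wt embryos, against 2.24, 2.21 and 1.72 RPKM in 2x wt embryos, a log2 change of 1.32 (SE 0.23, adjusted p = 0.0012, limma). HAM1 (0.20) and HAM2 (-0.23) did not pass.

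Of 11 further KNOX and BELL genes, relatives and partners of STM, 10 were tested and 0 called, with 0 higher and 4 lower on p alone (KNAT1, KNAT3, KNAT4 and PNF, from -0.93 to -0.61). Of 16 other boundary genes 10 were tested and 0 called, with 0 higher and 4 lower on p alone (TCP2, -0.92, BOP2, -0.59, TCP10, -0.50, and TCP4, -0.46). The TCP factors here are known to repress CUC genes, and the other 2 tested, TCP3 (-0.25) and TCP24 (-0.24), did not pass. The precursor loci of miR164 belong to this list and were not tested: among them 0.596 and 0.613 RPKM in 1 library each were the only values above 0, and poly(A)-selected libraries can hold precursors but not the mature microRNA. Of 9 cytokinin genes 8 were tested, and ARR10, an activator of the cytokinin response, fell to 10.0, 6.35 and 7.50 RPKM in 3x wt embryos, against 20.7, 18.5 and 22.5 RPKM in 2x wt embryos, a log2 change of -1.18 (SE 0.15, adjusted p = 0.00018, limma). On p alone 2 cytokinin genes were higher, ARR7 (0.76) and ARR1 (0.32), and 2 lower, ARR10 and ARR12 (-0.44). Of 15 polarity genes 0 were called, with 2 higher and 2 lower on p alone.

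Of the 10 remaining WOX genes 4 were tested between 3x wt and 2x wt embryos. WOX11, known from root founder cells, rose: it had 16.9, 12.1 and 13.6 RPKM in 3x wt embryos, against 5.72, 6.65 and 5.88 RPKM in 2x wt embryos, a log2 change of 1.30 (SE 0.14, adjusted p = 8.4e-05, limma). WOX12 (0.79) and WOX13 (0.55) passed on p alone. WOX5, the factor of the root quiescent centre, was the one gene of this list called between 3x *nrpd1* and 3x wt embryos, where it fell to 7.36, 5.95 and 7.61 RPKM in 3x *nrpd1*, against 12.9, 15.2 and 16.0 RPKM in 3x wt embryos (log2 fold change -1.01, SE 0.23, adjusted p = 0.023, limma). In that comparison the lists of CLV3 perception, HAM and TPL, KNOX and BELL, cytokinin, boundary and polarity genes had 0 calls, as did the interaction in those lists and in the remaining WOX genes. On p alone ARR10 (0.89, adjusted p = 0.021, limma) and TCP2 (0.94, adjusted p = 0.015) were higher in 3x *nrpd1* than in 3x wt. The same genes passed on p alone in the interaction, at 0.85 (adjusted p = 0.039, limma) and 0.88 (adjusted p = 0.038). No gene of those lists was lower on p alone in either. The share of all genes that passed on p alone was not worked out for these comparisons, so these counts cannot be weighed against it.

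The 2 genes most like each member over the 12 libraries were found by Pearson's r of log2(RPKM + 0.5) among 18561 genes. They were PTR1 (0.932) and GA2OX4 (0.897) for CLV3, WAG1 (0.908) and SPT (0.881) for STM, SUN2 (0.972) and YLMG1-2 (0.950) for CUC1, APE2 (0.980) and MBR2 (0.979) for WOX9 and ML4 (0.955) and PLT2 (0.953) for WOX3. For the other 5 genes the highest r was between 0.858 and 0.915, with AT1G76940 and NEDD1 for WUS, AT5G59240 and SHM6 for CUC2, AT1G34150 and HUB1 for CUC3, NPY3 and AT2G47570 for WOX1 and AT5G55580 and AT1G16260 for WOX2. The 12 points fall into 4 groups and share their depth and library composition, so these values only describe the profiles.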

How the data were processed

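Embryo messenger RNA of 12 libraries (4 groups of 3, about 150 embryos each) was used, with groups taken from the labels. The authors selected poly(A) RNA, sequenced it as pairs, used Trimmomatic for trimming, TopHat2 for mapping to TAIR10 with rRNA genes masked, and GFOLD for counting. Versions are not given in the sources used here. The deposited values are RPKM per gene, which the authors computed, and the total they divided by is not given in the sources used here. Replicates were separate crosses of distinct plants and were not pooled.

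Reads per library and gene were recovered as whole multiples (within 0.02) of the worth of 1 read, with the length of each gene also inferred. Because RPKM are not counts, limma 3.58.1 (R 4.3.3, variance trend) was run on log2(RPKM + 0.5) of the libraries compared, scaled by median ratios to a geometric mean library. The 95% intervals come from that fit. Genes that reached 1 RPKM in 3 or more of those libraries were tested, and p-values were two-sided and adjusted by Benjamini-Hochberg over all of them. In simulated data the fit recovered 182 of 200 changed genes between 3x wt and 2x wt (17557 genes). In the interaction it recovered 164 of 200 (18120 genes). Recovery at the levels and fold changes of the 10 members was not tested separately. Fold changes are on the log2(RPKM + 0.5) scale and understate those of low genes. All 10 members are named, from each list the called genes (others are named beside small counts), and the 2 most similar genes per member. The members and lists were chosen with earlier results of these data known. Sequences and positions are from RefSeq on TAIR10.1. Alternatives were other pseudocounts (0.1 and 1), no filter, a mean of at least 5 RPKM, deposited or quantile scaling, a replicate block, robust moderation, no fold threshold, one fit of all libraries, each library left out and, chosen after seeing the data, removal of the trend with exon length. Python 3.11.15, numpy 2.4.6, pandas 2.3.3, scipy 1.17.1 and matplotlib 3.10.9 were used.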

Additional observations from a re-analysis of the deposited data

Results flagged for a closer look

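The change from 2x to 3x embryos differed between *nrpd1* and wt pollen donors for 2 genes by the test of the difference itself. For CLV3 the difference (*nrpd1* minus wt) was -1.68 on the log2 scale (limma, adjusted p = 0.012), and all 3 libraries of 3x *nrpd1* lay below all 3 of 2x *nrpd1* while all 3 of 3x wt lay above all 3 of 2x wt. For STM it was -1.001 (limma, adjusted p = 0.032), at the threshold on fold, and the call held in only 11 of 22 alternatives. CLV3 rested on 6 or 7 reads in each 3x *nrpd1* library.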

How the results depend on the processing

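The counts of called genes were 3, 1, 0, 0 and 2 (3x wt over 2x wt, 3x *nrpd1* over 3x wt, 3x *nrpd1* over 2x *nrpd1*, 2x *nrpd1* over 2x wt, interaction). A mean of at least 5 RPKM left 1 called gene in 3x wt over 2x wt (WOX9), where CLV3 and CUC1 were then not tested, and 0 in 3x *nrpd1* over 3x wt and 1 in the interaction (STM), where CLV3 was not. A pseudocount of 1 gave 0 in 3x *nrpd1* over 3x wt and 1 in the interaction. The deposited scale and quantile normalization gave 1 each in the interaction (CLV3). Removing the trend with exon length, chosen after seeing the data, gave 3, 1, 0, 0 and 3 genes, with CUC1 added in the interaction (-1.34). Leaving out each library gave 0 to 1 genes in 3x *nrpd1* over 3x wt and 1 to 3 in the interaction. With a replicate block, CLV3 was not called in 3x *nrpd1* over 3x wt (0 genes, adjusted p = 0.050); the numbers were not taken as pairs, since deviations of same-numbered libraries correlated at -0.14 to 0.26. Of the single-gene values, 784 kept their sign and their side of the threshold, 23 lost it, 4 gained it and 22 changed sign, none of these with a call in either fit. With quantile normalization WUS was at -0.072 in 3x wt over 2x wt and WOX1 at 0.032 in 3x *nrpd1* over 3x wt. With 1 library left out, the values that changed sign ran from -0.13 to 0.087 (CUC3) and -0.45 to 0.0061 (WOX3) in 3x wt over 2x wt, from -0.30 to 0.15 (WOX1) and -0.11 to 0.82 (WOX2) in 3x *nrpd1* over 3x wt, from -0.78 to 0.14 (WOX2) and -0.33 to 0.18 (CUC2) in 3x *nrpd1* over 2x *nrpd1*, from -0.29 to 0.17 (CUC2), -0.31 to 0.11 (CUC3), -0.26 to 0.012 (WOX1) and -0.30 to 0.16 (WOX2) in 2x *nrpd1* over 2x wt, and from -0.19 to 0.26 (WOX1) and -0.0029 to 0.95 (WOX2) in the interaction. WUS, CLV3 and WOX2 rest on few reads and their small changes are beyond this depth.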

Other observations

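Outside the 10 genes, a few of the listed markers of seed tissues and of embryo identity were called between 3x *nrpd1* and 3x wt embryos, in lists whose other members did not all go the same way. Of 3 endosperm markers tested 1 was called higher and 0 lower, of 5 seed coat markers 0 higher and 3 lower, and of 12 embryo markers 1 higher and 0 lower, where 3.18% of all genes were called higher and 6.5% lower. ZOU, an endosperm factor known for the breakdown of that tissue, was at 1.90, 2.29 and 1.65 RPKM in 3x *nrpd1* embryos, against 0.650, 0.187 and 0 RPKM in 3x wt embryos (log2 fold change 1.74, adjusted p = 0.018, limma), while SUC5 stood at -0.94 (adjusted p = 0.11) and PHE1 at 0.05. LEC1, a regulator of embryo identity, was at 192, 196 and 190 RPKM in 3x *nrpd1* embryos, against 101, 78.7 and 65.2 RPKM in 3x wt embryos (log2 fold change 1.27, adjusted p = 0.0063, limma). Its relatives in function were at 0.76 for LEC2, -0.61 for FUS3 and -0.68 for ABI3, and none of these 3 passed (limma, adjusted p from 0.076 to 0.39). For each of them, and for SUC5, 3x *nrpd1* replicate 3, which stood apart, was the lowest library of its group. ABI3 had 185, 169 and 31.5 RPKM in 3x *nrpd1*, against 183, 156 and 147 RPKM in 3x wt embryos. In 3x *nrpd1* embryos FUS3 had 61.5, 51.1 and 28.7 RPKM, LEC2 had 17.47, 17.35 and 7.61 RPKM and SUC5 had 66.7, 67.6 and 19.2 RPKM. The seed coat genes BAN and TT10, of pigment synthesis, stood at -2.17 and -2.14 and SBT1.7, a mucilage protease, at -1.03, while TT12 stood at 0.99 and TTG2 at 0.34 and did not pass. ZOU was under 1 RPKM in every 3x wt library and BAN in every 3x *nrpd1* library. Each was tested only through the group where it was high, as was TT10, at most 1.003 RPKM in 3x *nrpd1*. The counts of called markers follow in part from this filter and are not comparable with the shares over all genes. In the interaction ZOU was called at 1.98, BAN at -3.20, TT10 at -3.08 and SBT1.7 at -1.22, while LEC1 was not called.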
